A study of Rattus norvegicus with 8 samples.

Results

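Hnf4a, Hnf4g, Foxa1, Foxa2, Foxa3, Onecut1, Gata4 and Gata6 encode transcription factors that the epithelia of pancreas, liver and gut share. These 8 genes were taken by name from the 14506 genes measured in fetal rat islets, and each had exactly 1 probe set assigned to it alone. The IUGR group (intrauterine growth restriction) was fetal islets of Sprague-Dawley litters whose dams had growth-restricting surgery on embryonic day 18. The sham group was islets of litters whose dams had a sham operation on that day. Islets were isolated on embryonic day 19 and pooled over a whole litter, and 1 Affymetrix whole-transcript array was run per litter, with 4 IUGR and 4 sham litters. An array therefore stands for all the cells of an islet preparation from 1 litter, and no sort of endocrine cells is named. The hormone genes Ins2 and Gcg were bright in every litter. Ins2 (insulin) was at log2 values of 13.67 to 13.88 in IUGR litters and 13.78 to 14.24 in sham litters. Gcg (glucagon) was at 13.58 to 13.72 in IUGR litters and 13.33 to 13.94 in sham litters. Sst (somatostatin) was lower, at 10.76 to 11.64 in IUGR litters and 10.27 to 12.83 in sham litters. Chga (chromogranin A) was at 10.32 to 10.68 in IUGR litters and 9.93 to 11.56 in sham litters. Genes of liver and acinar cells were bright too. Alb (albumin) had a mean of 13.925 in IUGR litters and 13.08 in sham litters, and Amy2a3 (amylase) 13.68 and 13.28.

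These factors act in a network, and some of them act early. FOXA proteins are forkhead factors that open closed chromatin, GATA proteins bind through zinc fingers, ONECUT1 (HNF6) carries a cut domain and a homeodomain, and HNF4 proteins are nuclear receptors. Members of these families act in the foregut endoderm from which liver and pancreas bud. Later they part: in the mouse, Gata4 is kept mainly in acinar cells and Gata6 mainly in endocrine and duct cells, Foxa2 is used by mature islet cells, Foxa3 is best known from liver and gut, and Hnf4g from intestine. HNF4A drives apolipoprotein and clotting factor genes in hepatocytes and is also needed for insulin secretion, and mutations of the human gene cause a form of maturity-onset diabetes of the young. Onecut1 switches on Neurog3 in mouse pancreatic progenitors. Because each factor is used by several cell types, a level in a whole preparation does not say which cells held the transcript.

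The start regions of Hnf4a and Foxa2 are shown because Hnf4a was the member that passed the test below, and because these were the windows that held words bound by members of these families. Each is a RefSeq window of the rat assembly GRCr8 that runs from 250 bases before to 50 bases after an annotated transcription start, written 5′ to 3′ on the strand of the gene. RefSeq windows were found for 4 of the 8 members. Hnf4a has 2 of them, 35616 bases apart. In human and mouse the upstream Hnf4a promoter is the main one in islets and the downstream one the main one in liver; the single Hnf4a probe set gives no separate value for them. The first window is chr3:172605970-172606269 on the plus strand, the second is chr3:172641586-172641885 on the plus strand and the Foxa2 window is chr3:155927459-155927758 on the minus strand. Capitals mark the matched words.
Hnf4a upstream start: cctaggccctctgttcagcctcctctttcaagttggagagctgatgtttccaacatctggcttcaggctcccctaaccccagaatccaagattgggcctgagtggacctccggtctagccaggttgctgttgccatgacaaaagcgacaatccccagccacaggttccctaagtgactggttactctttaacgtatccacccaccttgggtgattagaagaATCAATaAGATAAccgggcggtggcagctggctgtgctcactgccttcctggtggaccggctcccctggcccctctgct
Hnf4a downstream start: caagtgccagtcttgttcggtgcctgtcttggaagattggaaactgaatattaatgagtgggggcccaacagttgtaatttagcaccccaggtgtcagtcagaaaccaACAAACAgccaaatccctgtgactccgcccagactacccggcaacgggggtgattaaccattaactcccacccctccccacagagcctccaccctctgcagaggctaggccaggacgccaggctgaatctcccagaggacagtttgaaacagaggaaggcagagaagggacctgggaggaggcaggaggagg
Foxa2 start: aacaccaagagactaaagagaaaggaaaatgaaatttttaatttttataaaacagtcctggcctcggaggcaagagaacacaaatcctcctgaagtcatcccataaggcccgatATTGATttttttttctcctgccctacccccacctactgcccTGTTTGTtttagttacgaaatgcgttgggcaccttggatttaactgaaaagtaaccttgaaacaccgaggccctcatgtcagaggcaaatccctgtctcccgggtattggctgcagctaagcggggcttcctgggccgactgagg

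Words were searched on either strand, and ATCAAT was taken as the word for ONECUT proteins. For the GATA family it was any of AGATAA or AGATAG or TGATAA or TGATAG, and an HNF4 word was either CAAAGTCCA or CAAAGGTCA. A FOXA word was any of TATTTAC or TATTTAT or TATTTGC or TATTTGT or TGTTTAC or TGTTTAT or TGTTTGC or TGTTTGT. The upstream Hnf4a window held an ONECUT word whose first base lay at position -29 from the start and a GATA word at -22, and these words did not overlap. The downstream window held a FOXA word at -142. The Foxa2 window held an ONECUT word at -136 and a FOXA word at -95. Of 33469 windows in the table, 8.06% held the ONECUT word, 28.6% a FOXA word, 30.3% a GATA word and 0.813% an HNF4 word. The windows of Foxa3 and Gata6 held none of these words. A match is a description of the letters and shows no binding.

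All 8 factors had a higher mean in IUGR islets than in sham islets, by 0.32 to 1.61 on the log2 scale, with a median of 1.17 against 0.04 over all genes. Of all genes, 55.1% had a higher mean in IUGR. Hnf4a, Hnf4g, Foxa3 and Gata4 differed by more than 1 log2 unit, as 2.61% of all genes did. Hnf4a was the 1 member that passed the test, which was limma's moderated test with p-values adjusted over all 14506 genes at a threshold of 0.05. By that rule 0.248% of all genes passed, and 0.234% passed as higher. At an unadjusted p under 0.05, 5 of 8 members were higher, against 15.4% of all genes (26.1% in either direction). For Hnf4a, Foxa1, Foxa3 and Gata4 every IUGR litter lay above every sham litter. Over all genes the groups did not overlap for 15.5%, and the IUGR litters were the higher ones for 10.0%. In bulk islets a change in the number of cells of a type and a change in RNA per cell cannot be told apart. The arrays also differed in their range of values, with interquartile ranges of 3.53 to 3.62 in the IUGR litters against 3.63 in sham replicate 1 and 3.06 to 3.23 in the other sham litters. The part of this in the differences between the groups was not tested beyond the other scalings below.

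**Figure D1:**
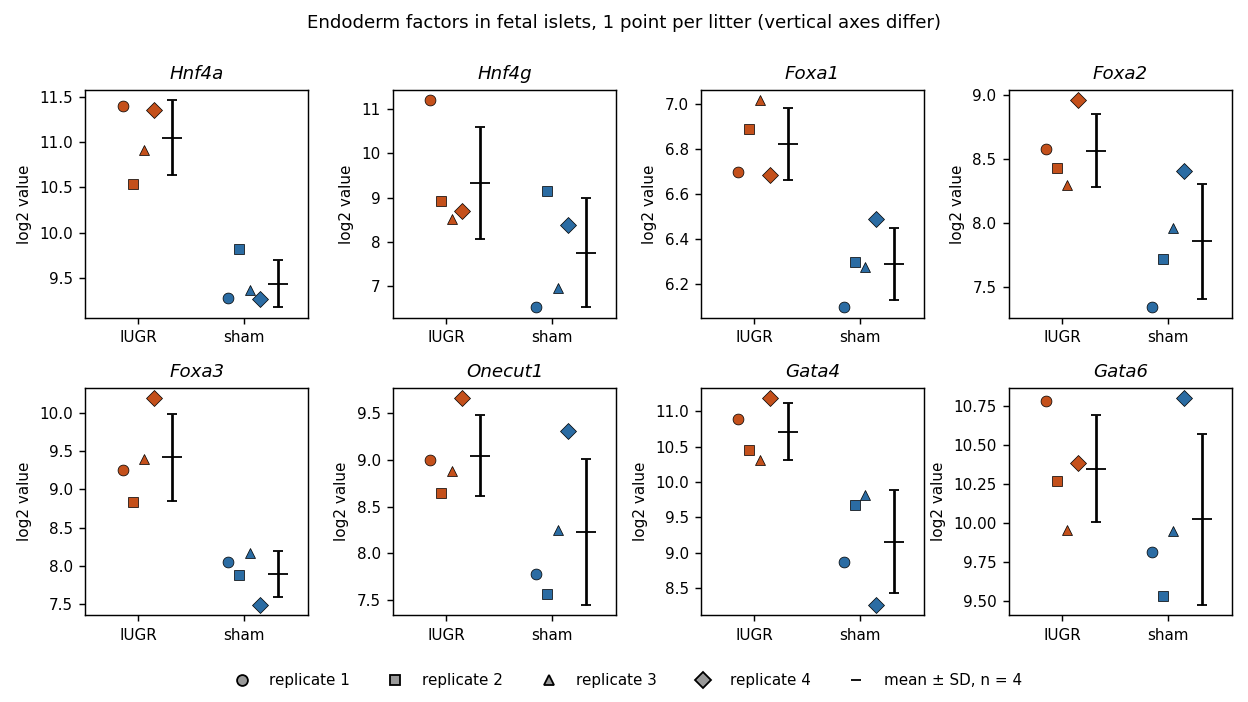
Log2 values of the 8 factors (vertical axis, scaled per panel) in 4 IUGR litters and 4 sham litters (horizontal axis); symbols are litters, and bars are mean ± SD (n = 4). The groups are apart for Hnf4a, Foxa1, Foxa3 and Gata4 and overlap for the other members, with IUGR replicate 1 far above the rest for Hnf4g.

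Among the nuclear receptors, Hnf4a stood at 11.40, 10.54, 10.91 and 11.36 (log2 value) in IUGR replicates 1 to 4, against 9.28, 9.82, 9.37 and 9.27 in sham replicates 1 to 4. The lowest IUGR litter lay 0.71 above the highest sham litter. The mean was 11.05 ± 0.41 in IUGR islets and 9.44 ± 0.26 in sham islets (SD, n = 4 each). Hnf4a rose by 1.61 ± 0.22 (SE) on the log2 scale, which is 3.06-fold (limma adjusted p = 0.043). The size of this rise varied less than the call. With 1 litter left out it lay between 1.498 and 1.79, and the call held in 3 of those 8 fits. These were the limma fits without IUGR replicate 2 (adjusted p = 0.025), sham replicate 1 (0.010) or sham replicate 4 (0.046). In these fits 43, 2738 and 157 of all genes passed, in that order. Other scalings of the arrays kept the direction and ended the limma call, with 1.43 under quantile scaling (adjusted p = 0.137), 1.43 under cyclic loess (adjusted p = 0.132) and 1.38 with medians centred (adjusted p = 0.093).

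Hnf4g, the paralogue best known from intestine, behaved differently among litters. It stood at 11.19, 8.92, 8.51 and 8.70 in IUGR replicates 1 to 4, against 6.52, 9.16, 6.96 and 8.38 in sham replicates 1 to 4. A single IUGR litter was high, and sham replicate 2 lay above 3 of the 4 IUGR litters. Its difference of 1.57 ± 0.75 (SE) was therefore close to that of Hnf4a in size but did not pass (limma adjusted p = 0.221), with an interval of -0.15 to 3.30. Without IUGR replicate 1 the difference was 0.95 (adjusted p = 0.391).

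Of the forkhead factors, Foxa3 differed most. Foxa3 stood at 9.26, 8.84, 9.39 and 10.20 in IUGR replicates 1 to 4, against 8.05, 7.88, 8.18 and 7.49 in sham replicates 1 to 4, with a gap of 0.67 between the groups. IUGR replicate 4 was the highest litter and sham replicate 4 the lowest. The difference was 1.52 ± 0.28 (SE), or 2.88-fold, with an adjusted p of 0.070 (limma), just short of the threshold. Foxa2, the forkhead factor of mature islet cells, stood at 8.58, 8.43, 8.30 and 8.96 in IUGR litters, against 7.34, 7.72, 7.96 and 8.41 in sham litters. Sham replicate 4 reached the level of the lower IUGR litters, and the difference of 0.71 ± 0.24 (SE) did not pass (limma adjusted p = 0.138). Foxa1, which acts beside Foxa2 in the mouse pancreas bud, stood at 6.70, 6.89, 7.01 and 6.68 in IUGR litters, against 6.10, 6.30, 6.28 and 6.49 in sham litters. The groups were apart by only 0.20, the difference was 0.53 ± 0.12 (SE, limma adjusted p = 0.080), and the Foxa1 probe set was among the dimmest 30% of genes. With median centring the Foxa1 groups overlapped and its difference was 0.30.

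Onecut1 stood at 8.998, 8.64, 8.88 and 9.66 in IUGR replicates 1 to 4, against 7.78, 7.56, 8.25 and 9.31 in sham replicates 1 to 4. The sham litters ranged more widely than the IUGR litters, and sham replicate 4 lay above 3 of the IUGR litters. The difference was 0.82 ± 0.39 (SE, limma adjusted p = 0.218), and without sham replicate 4 it was 1.18 (adjusted p = 0.077).

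Of the GATA factors, Gata4 had the larger difference, and a contrast between them was not tested. Gata4 stood at 10.90, 10.45, 10.31 and 11.19 in IUGR replicates 1 to 4, against 8.86, 9.68, 9.81 and 8.26 in sham replicates 1 to 4. Every IUGR litter was higher, by a gap of 0.49, and the difference of 1.55 ± 0.36 (SE), or 2.94-fold, did not pass (limma adjusted p = 0.095). With array weights, which count some litters less, the difference of Gata4 was 0.83 (limma adjusted p = 0.013) and that of Foxa3 1.14 (limma adjusted p = 0.0032). Gata6 stood at 10.78, 10.27, 9.95 and 10.39 in IUGR litters, against 9.82, 9.53, 9.95 and 10.80 in sham litters. The highest of the 8 litters was sham replicate 4. The difference of 0.32 ± 0.28 (SE) was the smallest among the members (limma adjusted p = 0.474), with an interval of -0.33 to 0.97, and leaving out sham replicate 4 gave 0.58, leaving out sham replicate 2 gave 0.16. Sham replicate 4 was the litter on which overlap turned most often. Without it, 7 of 8 members were higher in every IUGR litter, all but Hnf4g, where 14.8% of all genes were.

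**Figure D2:**
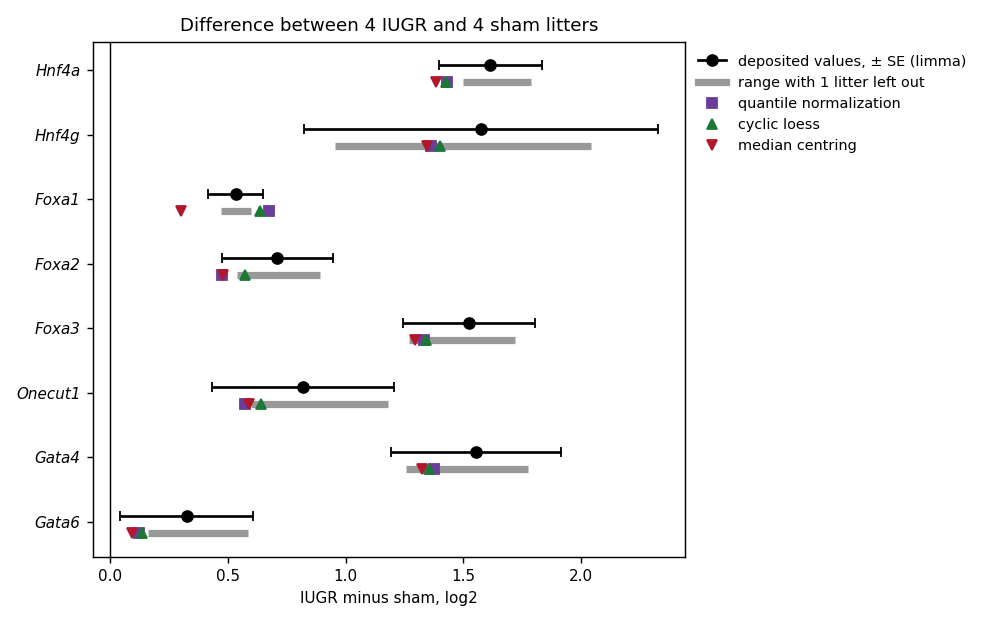
IUGR minus sham on the log2 scale (horizontal axis) for each factor; black points are the limma estimates ± SE from the deposited values, grey bars the range with each litter left out, and coloured symbols other scalings. Every estimate drawn lies above 0; in these settings Hnf4a, Foxa3 and Gata4 stay above 1.2, and Gata6 comes down to 0.09 with median centring.

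Whether the factors followed hepatocyte or endocrine transcripts was examined over the 8 litters with list means. The albumin-type list held 31 measured liver plasma protein genes, of which 30 were higher in IUGR by a list median of 1.90. None passed the threshold over all genes. The list had 28 genes at an unadjusted p under 0.05 (limma), where 26.1% of all genes were. Its mean log2 value was 11.46, 10.68, 11.82 and 12.35 in IUGR replicates 1 to 4, against 10.93, 8.99, 10.38 and 8.50 in sham replicates 1 to 4 (exact permutation p = 0.057, two-sided, where 0.029 is the smallest p possible). The endocrine list held 27 measured hormone, granule and beta cell genes, of which 21 were higher by a median of 0.13 and none passed. This list had 0 genes at an unadjusted p under 0.05 (limma). Its mean was 10.69, 10.31, 10.17 and 10.30 in IUGR litters, against 9.89, 9.79, 9.81 and 11.38 in sham litters. Sham replicate 4 thus had the highest endocrine and the lowest albumin-type list mean of all 8 litters. The 16 correlations of 8 factors with 2 lists were adjusted together. Like the members, both lists were chosen with earlier results of these data known. Because several factors differ between the groups, the correlation of deviations from the group means is given beside each pooled value.

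Foxa3 followed the albumin-type genes. Over 8 litters Pearson's r was 0.90 (exact permutation p = 0.0014, adjusted p = 0.011) and Spearman's rho 0.93 (exact permutation p = 0.0022, adjusted p = 0.018). Without sham replicates 2 and 4, the litters farthest from the median of that list, r was 0.90. For deviations from the group means r was 0.78, positive within each group (exact permutation p = 0.012, adjusted p = 0.097), and it lay between 0.71 and 0.87 with any 1 litter left out. With the endocrine list the r of Foxa3 was -0.07 and that of the deviations -0.44, but the pooled r was 0.73 without sham replicate 4, so its sign rests on that litter.

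Gata6 followed the endocrine genes. Pearson's r was 0.90 (exact permutation p = 0.00035, adjusted p = 0.0056) and rho 0.95 (exact permutation p = 0.0011, adjusted p = 0.018). Without sham replicate 4 and IUGR replicate 1, the litters farthest from the median, r was 0.87. For the deviations r was 0.92 (exact permutation p = 0.010, adjusted p = 0.097), and 0.88 to 0.95 with 1 litter left out. With the albumin-type list the r of Gata6 was 0.07, or 0.66 without sham replicate 4 and -0.32 without sham replicate 2. These were the 2 of 16 pooled correlations that passed when adjusted, and neither passed for the deviations.

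The other members followed neither list past the threshold. Onecut1 had an r of 0.70 with the endocrine list (exact permutation p = 0.044, adjusted p = 0.140), and the r of its deviations of 0.78 came to 0.01 without sham replicate 4. The same litter carried Foxa2, whose deviations had an r of 0.67 with the endocrine list, or 0.05 without it. Hnf4a had a pooled r of 0.74 with the albumin-type list (exact permutation p = 0.039, adjusted p = 0.140) and Gata4 one of 0.77 (exact permutation p = 0.027, adjusted p = 0.140). Spearman's rho was 0.79 for Onecut1 and 0.76 for Hnf4a and for Gata4 with these lists (exact permutation, adjusted p = 0.118 each). For the deviations of Hnf4a and Gata4 r was 0.16 and 0.38, below their pooled values. Within IUGR litters r was 0.72 for Hnf4a and 0.57 for Gata4, and within sham litters -0.35 and 0.32. Foxa1 (-0.66) and Hnf4g (-0.62) had negative deviations r with the albumin-type list, neither past the threshold.

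Setting each list mean into the limma model as a covariate moved the factors in different ways. With the albumin-type mean the difference of Foxa3 was 0.82 ± 0.29 (1.52 without it), that of Gata4 1.11 ± 0.54 and that of Hnf4a 1.51 ± 0.35, while that of Hnf4g was 3.09 ± 0.95 and that of Gata6 0.65 ± 0.43 (SE). In that limma fit 0 genes passed, Hnf4a included (adjusted p = 0.596), and 678 had an unadjusted p under 0.05. The list mean was itself higher in 3 of the 4 IUGR litters than in every sham litter. With the endocrine mean the SE of Gata6 was 0.13 against 0.28, and its difference was 0.22. In that fit Hnf4a, Foxa1, Foxa3 and Gata4 passed (limma adjusted p from 0.027 to 0.040), among 1356 of all genes.

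**Figure D3:**
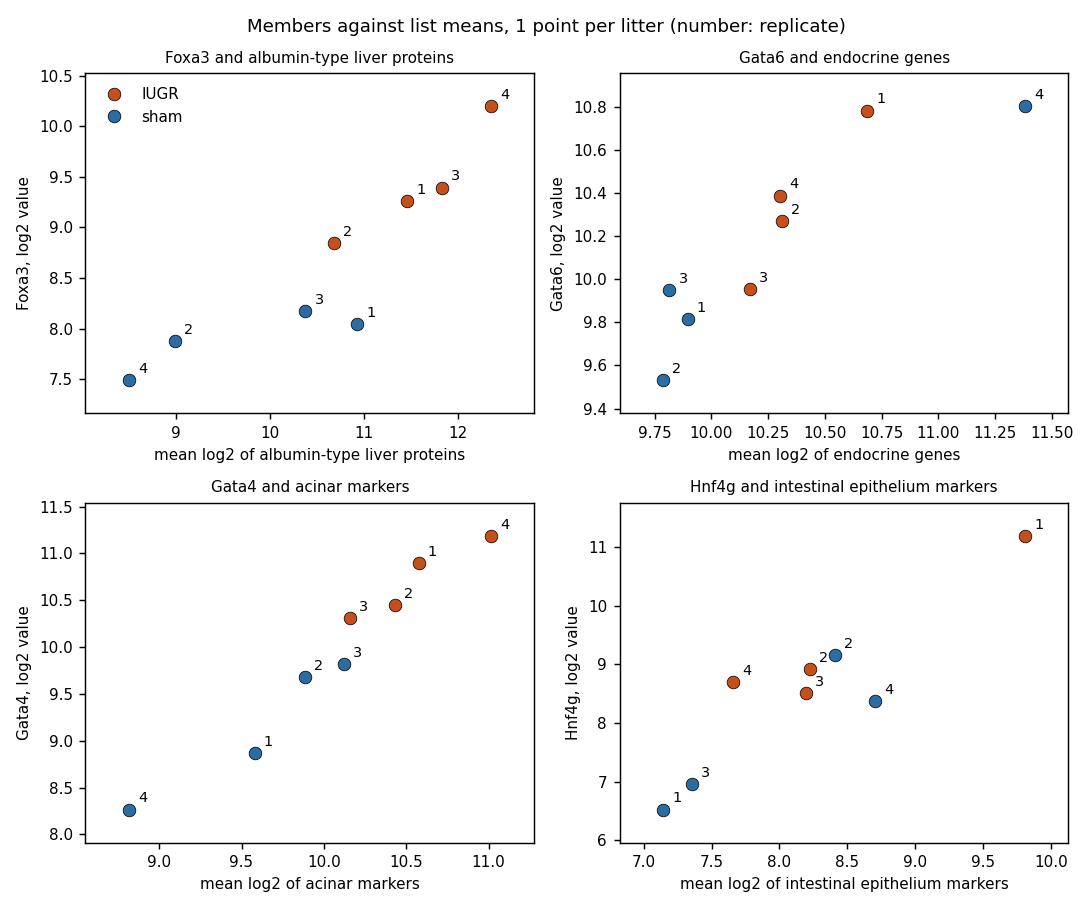
Log2 value of a factor (vertical axis) against the mean log2 value of a gene list (horizontal axis) for 4 pairs; each point is a litter, coloured by group and numbered by replicate. Points run upward in all 4 panels, with sham replicate 4 at the low end for Foxa3 and Gata4 and at the high end for Gata6, and IUGR replicate 1 at the top for Hnf4g.

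Lists of other cell types were set against the factors in the same way after the values had been seen, which gave 88 further correlations adjusted among themselves. Of these, 20 passed by pooled r, 9 by rho and 8 by both, while 0 passed for the deviations (exact permutation, adjusted p). The orders within groups allow no exact permutation p below 0.0017 for the deviations. Adjusted over 88 correlations, a single p of that size becomes 0.153, so a relation could not pass on its own. For these lists, a deviations r that did not pass therefore does not decide whether the relation holds within groups. Gata4 and the acinar list put the 8 litters in the same order. The acinar mean over 24 genes was 10.58, 10.43, 10.16 and 11.01 in IUGR replicates 1 to 4, against 9.58, 9.88, 10.12 and 8.82 in sham replicates 1 to 4. The pooled r of Gata4 with that list was 0.98 (exact permutation, adjusted p = 0.0022), and 0.97 without sham replicate 4 and IUGR replicate 4, the litters farthest from the median. For deviations from the group means r was 0.96 (exact permutation p = 0.0017, adjusted p = 0.153), and 0.92 to 0.98 with 1 litter left out. Pooled values with this list also passed for Foxa3 (r 0.88, rho 0.90) and Hnf4a (r 0.82, rho 0.93), with deviations r of 0.69 and 0.48. Of the acinar genes 23 of 24 were higher in IUGR by a median of 1.03, none past the threshold over all genes, among them Zg16, a zymogen granule protein (2.35), Sycn, which encodes syncollin (1.69), and the acinar transcription factor Bhlha15 (1.24).

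Hnf4g varied with the intestinal list, but not with it alone. For the duct and epithelial list, given below, its deviations r was 0.85 (exact permutation p = 0.0087, adjusted p = 0.153). The intestinal list, of 17 measured genes, had means of 9.81, 8.22, 8.19 and 7.66 in IUGR replicates 1 to 4, against 7.14, 8.41, 7.36 and 8.70 in sham replicates 1 to 4. IUGR replicate 1, the litter with the high Hnf4g, was also the highest for these genes. The pooled r was 0.91 (exact permutation, adjusted p = 0.037) and rho 0.74 (exact permutation, adjusted p = 0.139). Without IUGR replicate 1 and sham replicate 1, the litters farthest from the median, r was 0.64 (exact permutation p = 0.163), so the pooled relation rests on those litters. The r of the deviations was 0.93 (exact permutation p = 0.030, adjusted p = 0.292), and 0.86 without IUGR replicate 1. The intestinal list shares Apoa4 with the albumin-type list and Fabp1 with the list of liver enzymes. Of its members, the brush border gene Vil1 differed by 1.32, Dpp4 by 0.63 and the fatty acid binding protein gene Fabp1 by 1.51, and none passed (limma adjusted p from 0.124 to 0.183).

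**Figure D4:**
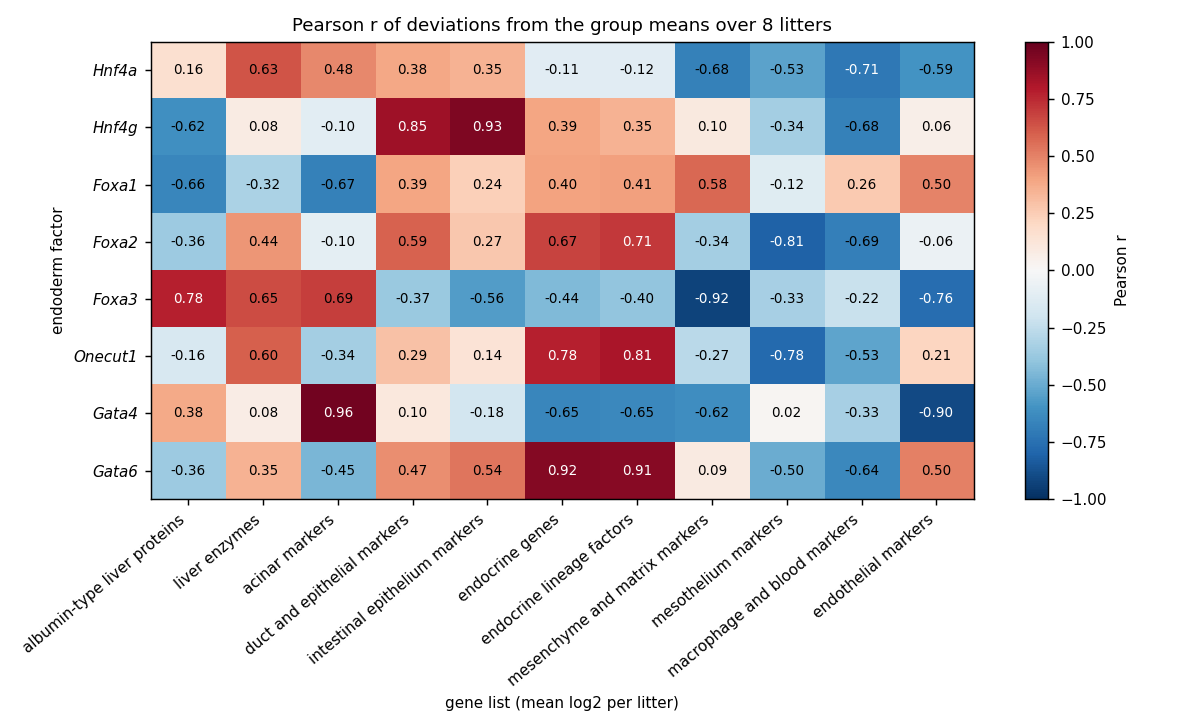
Pearson r between deviations from the group means of each factor (rows) and of each list mean (columns) over 8 litters, coloured from -1 to 1. The highest positive values in their rows include Foxa3 with albumin-type proteins (0.78), Gata6 with endocrine genes (0.92), Gata4 with acinar markers (0.96) and Hnf4g with intestinal markers (0.93).

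Duct and epithelial markers, which these factors accompany in the developing pancreas, were higher in IUGR in 15 of 16 measured genes, by a median of 1.08. The mean was 11.06, 10.73, 10.64 and 10.66 in IUGR litters, against 9.28, 10.05, 9.83 and 10.08 in sham litters, with no overlap. Krt8, an epithelial keratin, rose by 1.07 ± 0.14 (SE, limma adjusted p = 0.043) and was the 1 gene of the list that passed. The other keratin Krt18 differed by 0.84, Prom1 by 0.63 and the mucin gene Muc1 by 1.58. The pooled r with this list passed for Hnf4a (0.89), Foxa1 (0.87), Hnf4g (0.84) and Foxa2 (0.84), but their rho values of 0.76 to 0.88 did not (exact permutation, adjusted p from 0.053 to 0.124). The deviations r was 0.38 for Hnf4a, 0.39 for Foxa1, 0.85 for Hnf4g and 0.59 for Foxa2. Genes of mesenchyme ran the other way, with 19 of 21 lower by a median of -0.62 and means of 10.53 to 11.55 in IUGR litters against 11.59 to 11.86 in sham litters. All 19 measured macrophage and blood markers were lower too, by a median of -0.65, with means of 9.78 to 10.78 in IUGR litters against 10.71 to 11.34 in sham litters. No gene of these last 2 lists passed the threshold. Foxa3, Hnf4a and Gata4 ran against the mesenchyme list, with pooled r of -0.91, -0.80 and -0.81 and rho of -0.90, -0.98 and -0.95 (exact permutation, adjusted p from 0.010 to 0.048). Their deviations r were -0.92, -0.68 and -0.62, none past the threshold when adjusted. Foxa2 ran against the macrophage and blood list, with a pooled r of -0.84 and a rho of -0.95 (exact permutation, adjusted p = 0.048 and 0.020). The deviations r of that pair was -0.69 and did not pass when adjusted. The part of these lists in the levels of the factors was not tested.

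The factors also varied among themselves. Over 28 pairs, Foxa2 and Onecut1 had a pooled r of 0.92 (exact permutation p = 0.0013, adjusted p = 0.019), a rho of 0.86 (adjusted p = 0.060) and an r of the deviations of 0.89 (exact permutation p = 0.019, adjusted p = 0.535). Without the 2 litters farthest from the median of Foxa2 the pooled r was 0.88. Hnf4a, Foxa3 and Gata4 had pooled r values of 0.90 to 0.92 with each other (exact permutation, adjusted p of 0.019 for each pair), and rho values of 0.86 to 0.93, which passed for Gata4 with Hnf4a and with Foxa3 (adjusted p = 0.043 each). Their deviations r of 0.53 to 0.62 did not pass. Gata4 and Gata6 had a pooled r of 0.11 and a deviations r of -0.41. Without the 2 litters farthest from the median of Gata4 the pooled r was 0.85, so the low value rests on those litters. Foxa1 had negative deviations r with Hnf4a, Foxa3 and Gata4, of -0.44, -0.56 and -0.54. None of the 28 deviations r passed when adjusted.

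Of 29 other measured regulators of the endoderm network, 21 were higher in IUGR and 8 lower, by a median of 0.30. Nr1h4, which encodes the bile acid receptor FXR, rose by 0.96 ± 0.13 (SE, limma adjusted p = 0.043), the 1 gene of that list past the threshold. The limma calls of Nr1h4 and Krt8 were lost under the same 3 other scalings as that of Hnf4a. Ppara, a nuclear receptor of fatty acid oxidation in liver, differed by 2.05 (adjusted p = 0.080), the xenobiotic receptor gene Nr1i2 by 1.31 (adjusted p = 0.075) and Nr2f6 by 0.54 (adjusted p = 0.074). Liver enzyme genes controlled by HNF and FOXA factors were higher in 18 of 23, by a median of 0.82, with 0 past the threshold over all genes (12 at an unadjusted p under 0.05, limma, where 26.1% of all genes were). Among them the gluconeogenic gene Fbp1 differed by 1.08, Hpd of tyrosine breakdown by 2.32 and the bile acid enzyme gene Cyp27a1 by 1.06. The pooled r with this list passed for Foxa3 (0.90) and Hnf4a (0.89, exact permutation, adjusted p = 0.037 each). Their rho of 0.76 did not pass (exact permutation, adjusted p = 0.124 each), nor did their deviations r of 0.65 and 0.63. Within IUGR litters r was 0.90 for Foxa3 and 0.92 for Hnf4a, and within sham litters -0.72 and -0.64. In the endocrine lineage all 12 measured factors were higher, by a median of 0.61, and none passed. The list mean was 9.21 to 9.54 in IUGR litters, against 8.44 to 8.52 in sham replicates 1 to 3 and 9.67 in sham replicate 4, the highest of all 8 litters. The pooled r with this list passed for Gata6 (0.90), Onecut1 (0.88) and Foxa2 (0.83, exact permutation, adjusted p from 0.037 to 0.048). Of these, only Gata6 passed by rho too (0.98, exact permutation, adjusted p = 0.012). Their deviations r were 0.91, 0.81 and 0.71, none past the threshold. Without sham replicate 4 those of Onecut1 and Foxa2 came to 0.20 and 0.19. Neurog3, the starter of endocrine differentiation and a target of ONECUT1 in the mouse, differed by 0.84 (limma adjusted p = 0.053), Pou3f4 by 1.08, Pax4 by 0.61 and Rfx6 by 0.95.

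The genes most like each factor over the 8 arrays were taken by the highest Pearson r among 14498 other genes, as a description. They were Itpka, Pex6 and Mgst2 for Hnf4a (0.98 each), and Krt20, Hoxd3 and Rnf186 for Hnf4g (0.97, 0.97 and 0.96). For Foxa1 they were Wfdc2, Lrrc8e and B3gntl1 (0.98, 0.97 and 0.97), for Foxa2 Rap1gap2, Ret and Tmem63a (0.99, 0.98 and 0.98), and for Foxa3 Cmtm8, Stard10 and Isoc2b (0.99 each). Reln, Copg1 and Igsf11 were most like Onecut1 (0.99 each), Lgals12, Serpinb1a and Spdef most like Gata4 (0.99, 0.99 and 0.98), and Eml5, Trib1 and Aplp1 most like Gata6 (0.99, 0.98 and 0.98). An r of 0.9 or more was reached by 490 genes for Foxa3, 270 for Gata4 and 222 for Hnf4a, but by 28 for Hnf4g and 19 for Foxa1. Krt20 is a keratin of the intestinal and upper urothelial surface, and Mgst2 is a microsomal glutathione transferase that itself passed the threshold (1.35, limma adjusted p = 0.043).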

How the data were processed

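The authors deposited 1 log2 value per probe set and array. RMA is named for them in the submitters' processing notes, its version was not given in the sources used here, and the log base was read from the range of the values. No array files or detection calls were used. Of 29214 probe sets, 15310 had 1 gene in the platform annotation, 323 several and 13581 none; 15279 of the 1-gene probe sets were matched to RefSeq (GRCr8) for current symbols. The brightest probe set per gene was kept, leaving 14506 genes. The 2 groups were compared on the values as deposited, with lmFit and eBayes of limma 3.58.1 (R 4.3.3) and Benjamini-Hochberg adjustment; the step was tested on simulated data. Correlations used all 40320 pairings of 8 litters, and deviations from group means the 576 orders within groups. Members and lists were chosen with earlier results of these data known. Named were the 8 members, up to 4 genes per list by smallest p, and the 3 genes most like each member. The number of arrays limits the precision. Alternatives were 3 scalings, a filter on the dimmest 30%, a trended robust prior, array weights, a replicate block, other probe set choices, 2 covariates and each litter left out. Promoter windows came from RefSeq. Figures were drawn with matplotlib 3.10.9.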

Additional observations from a re-analysis of the deposited data

Results flagged for a closer look

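In groups of 4, a litter far from the other 3 was found in 16 of 196 comparisons of named genes and list means. In independent comparisons chance gives about 1 in 20. These were not independent, because list means hold named genes and some genes were chosen as most like a member. The count therefore cannot be set against that rate. Hnf4g was 11.19 in IUGR replicate 1, against 8.51 to 8.92 in the other IUGR litters. In sham replicate 4 the endocrine list mean was 11.38 (9.79 to 9.89 in the other sham litters) and that of endocrine lineage factors 9.67 (8.44 to 8.52). The same litter had Neurog3 at 10.31 (9.77 to 9.80 in the others), Pyy at 13.59, Cd34 at 12.58 and Nr2f6, lower than the others, at 9.17. Sham replicate 1 had Nr2c1 at 10.32, higher than the others, and Lrrc8e at 7.12, lower. IUGR replicate 4 was lower than the other IUGR litters for the endothelial list mean (10.36), Postn (10.62) and Kdr (10.75). It was higher for Spdef (10.53), Tmem63a (11.03), Isoc2b (9.51) and Copg1 (11.86). Spdef, Tmem63a, Isoc2b and Copg1 are among the genes most like Gata4, Foxa2, Foxa3 and Onecut1.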

How the results depend on the processing

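The count of 36 genes past the threshold, and of 1 member, moved with most settings, while each member kept its direction in every setting it was fitted in (Foxa1 was removed with the dim genes). No gene and no member passed in limma after quantile scaling, after cyclic loess or with the albumin-type covariate (0 and 0), where 678 to 3305 genes had an unadjusted p under 0.05. The counts were 1 and 0 with medians centred, 3 and 0 with all probe sets, 59 and 1 without dim genes, 6358 and 7 with array weights, and 1356 and 4 with the endocrine covariate. Leaving out 1 litter gave 0 to 2738 genes and 0 to 3 members, with the most without sham replicate 1. The cause was not tested. With the replicate block 0 genes and 0 members passed (2715 genes at an unadjusted p under 0.05); deviations of same-numbered litters correlated at -0.43, 0.10, -0.12 and -0.13, so the numbers were not taken as pairs. Centring put the median difference over all genes at -0.19, against 0.04 as deposited. The higher share among genes with an unadjusted p under 0.05 was 58.9% as deposited, 45.9% with quantile scaling, 47.6% with loess and 13.4% with centring. The tracking count stayed at 2 under other scalings and was 1 to 3 with a litter left out (1 without IUGR replicate 4 or sham replicate 4). The albumin-type list difference was 1.48 to 2.29 with a litter left out, and the endocrine one 0.0026 to 0.53, or -0.084 with centring. Signs also turned for Hpd (-0.059), Ppy (0.032) and Gpm6a (-0.19) with the albumin-type covariate, and for Gpm6a (-0.017), Hoxd3 (-0.054) and Copg1 (-0.054) with centring. With a litter left out, pooled r ran from -0.062 to 0.88 for Hnf4a, -0.23 to 0.73 for Foxa3 and -0.42 to 0.79 for Gata4 with endocrine genes, and from -0.11 to 0.24 for Hnf4g and -0.32 to 0.66 for Gata6 with albumin-type genes. Under scalings it was -0.013 for Hnf4a with endocrine genes (centring), and for Gata6 with albumin-type genes -0.21 (quantile), -0.21 (centring) and -0.16 (loess).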

Other observations

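Other members of the FOX, GATA and HNF4-type families were split in direction. Of 18 measured, 11 were higher and 7 lower in IUGR islets, with a median of 0.06 and none past the threshold. An unadjusted p under 0.05 (limma) was reached by 3 of them. Over all genes 55.1% had a higher mean in IUGR, and 26.1% had an unadjusted p under 0.05 in either direction. Foxq1 differed by 1.09 (limma adjusted p = 0.054), the lowest p of that list, Nr2c1 by 0.25, Foxi1 by -0.27 and Gata2, a GATA factor of blood and endothelium, by -0.39. Whether this list differs from the 8 factors was not tested.

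Of 8 measured markers of mesothelium, a tissue in which GATA factors are also expressed, 6 were higher by a list median of 0.16, and their mean was 9.51 to 10.15 in IUGR litters against 9.42 to 9.98 in sham litters. Aldh1a2, which makes retinoic acid, differed by 0.45 and Upk1b by 0.34. Gpm6a differed by 0.21 and Tcf21 by -0.36. The 14 endothelial genes measured all had lower means, with a list median of -0.18, with Cd34 differing by -0.53 and Ramp2 by -0.49, and none passed.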
